A study of Mus musculus with 14 samples.

Results

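Ribosomal protein genes encode the proteins of the cytoplasmic ribosome. Members were taken by symbol from both expression tables: Rpl or Rps followed by a number (with an optional a, l or x), Rplp0 to Rplp2, and Rpsa. The rule found 83 genes among 51211 gene symbols, 51 of the large subunit (Rpl) and 32 of the small subunit (Rps). GENCODE annotates 80 of them as protein-coding and 3 as pseudogenes (Rps4l, Rpl6l and Rpl32l). They lie on 19 chromosomes, 4 of them on the X chromosome. RNA was measured in whole olfactory epithelium of 14 mice at P5, in 2 experiments that were normalized separately. In the Kir2.1 experiment, 3 Kir2.1 mice carried OMP-IRES-tTA and tetO-Kir2.1-IRES-tauLacZ, and 3 control mice carried OMP-IRES-tTA alone. The transactivator is thus present in both groups and is driven from the Omp locus, which is active in mature olfactory sensory neurons (OSNs), so the potassium channel Kir2.1 (gene Kcnj2) is placed in those cells. In the PEA experiment, 4 wild-type mice were exposed continuously to 2-phenylethylamine (PEA), an odor aversive to mice, from P0 to P5, and 4 wild-type mice were not. The labels name the strain as C57BL/6 for all mice, while the methods of the study name CD-1 pups for the exposure.

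A ribosome has a large subunit, which joins amino acids, and a small subunit, which reads the mRNA. Each holds ribosomal RNA and its own set of proteins. Their genes are expressed in every cell, and the proteins are needed in equal amounts, so the mRNA levels are usually held close together. Ribosomal protein mRNAs are known for a 5′ terminal pyrimidine tract, a C and a run of pyrimidines at the very start of the transcript, through which the growth kinase mTOR and the protein LARP1 control their translation. In neurons, phosphorylation of the small-subunit protein S6 (Rps6) is widely used as a mark of recent activity.

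A stretch near the annotated transcription start is shown for members that lead the 2 comparisons and for Rps6, because pyrimidine runs are frequent there. Each line gives 30 bases of the gene strand, 5′ to 3′, from the RefSeq promoter table (GRCm38.p6), centred on the longest pyrimidine run between 30 bases before and 50 bases after the start, which is in capitals. A window need not hold the start itself.
Rpl36a (X:134585672-134585701, plus strand): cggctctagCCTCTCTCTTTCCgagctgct
Rpl31 (1:39367824-39367853, plus strand): ctcgccacaCCTCTTCCTCCTCgcctcccc
Rpl38 (11:114668568-114668597, plus strand): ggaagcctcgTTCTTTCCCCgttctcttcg
Rpl37a (1:72711274-72711303, plus strand): cgcattgcgTCCCTTCCTCTTCggacttgg
Rpl35 (2:39005115-39005144, minus strand): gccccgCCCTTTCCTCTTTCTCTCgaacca
Rpl18 (7:45718062-45718091, plus strand): tcgcaggccgCTCTTTCCCCgcccactccg
Rps6 (4:86857349-86857378, minus strand): ggaagtcgggCCTCTTTTTCgtgacgcctc
Runs of 10 to 18 pyrimidines stand in these 7 windows. Counted from the annotated start (its first base is 1, the base before it -1), the run begins at 28 in Rpl36a, -18 in Rpl31, -2 in Rpl38, 24 in Rpl37a, -7 in Rpl35, 2 in Rpl18 and -1 in Rps6, so not all of these runs open the annotated transcript. A C followed by at least 7 pyrimidines, on the gene strand between 30 bases before and 50 bases after an annotated start, was found in 48 of the 60 protein-coding members with an entry (80.0%), against 25.99% of 27025 genes with an entry. The word CTTTCC, which can lie inside such a run, was found in the same interval in 18 of the 60 members and 4.36% of all genes. In the 300 bases from 250 before to 50 after the start, CCGGAAG (the core bound by ETS factors, searched on both strands) was found in 41.7% of the members and 9.93% of all genes, and TATAA (gene strand) in 15 of the 60 members and 20.03%. Members and all genes had a like number of listed starts per gene (1.20 and 1.22). A match of letters is a description and not a measured site.

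In the control mice of the Kir2.1 experiment, the median level of the 79 members that passed the filter (a mean normalized count of at least 10 over the mice) was 24821 normalized counts per kilobase of transcript. The highest levels were those of Rpl41 (90345 ± 19121 per kilobase, SD, n = 3), which encodes a very short protein between the subunits, Rplp1 (71126 ± 3454) of the stalk, and Rps12 (66592 ± 1798). The lowest control mouse for Rpl41 lay just above the highest for Rplp1. At the other end stood Rpl39l, a paralog of Rpl39 used mainly in testis (16.3 ± 7.16), the pseudogene Rps4l (1546 ± 664) and Rpl5, which carries 5S RNA into the ribosome together with Rpl11 (2892 ± 573). The median control coefficient of variation was 8.38% over the members and 11.2% over all tested genes.

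In the control mice of the PEA experiment, the median level of the 78 members tested was 4293 normalized counts per kilobase. The highest were Rpl7 (16791 ± 4842 per kilobase, SD, n = 4), Rps27 (15441 ± 2614) and Rps12 (11758 ± 2045), whose spreads overlap. The lowest were Rps4l (18.6 ± 4.80), Rpl29 (39.0 ± 13.7) and Rpl12 (229 ± 24.4). The members' median control coefficient of variation was 17.2%, beside 17.8% over all tested genes.

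The 2 tables put the members in different orders. They were normalized separately and made from different libraries (poly-A selected and read as 40-base reads for Kir2.1, ribosomal RNA-depleted total RNA read as 150-base reads for PEA), so the levels are set side by side and not tested. Over the 78 members tested in both, the Spearman correlation of the control level per kilobase was 0.16. The median member was 5.85 times lower in the PEA table, against 2.99 times over 15136 protein-coding genes in both.

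**Figure D1:**
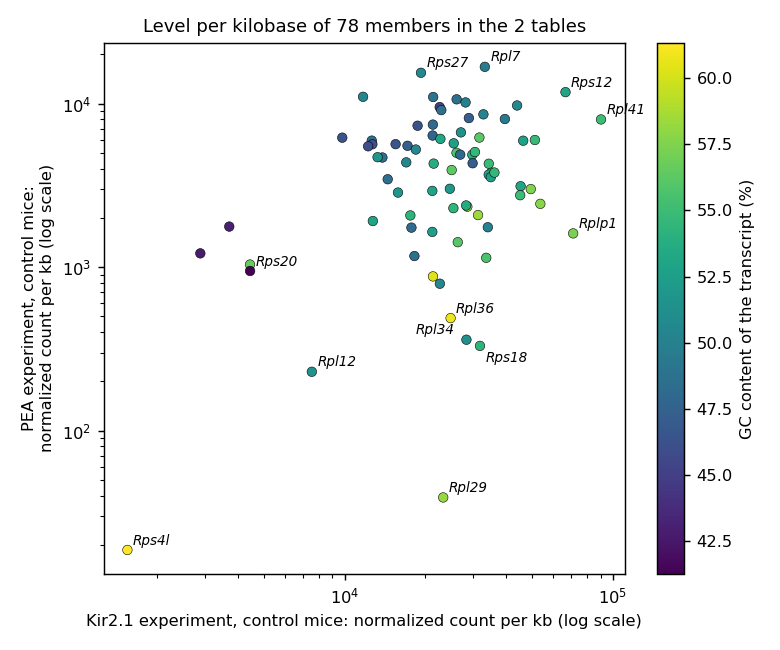
Mean level per kilobase of 78 ribosomal protein genes in the control mice of the Kir2.1 experiment (x axis, normalized counts per kilobase, log scale) and of the PEA experiment (y axis, same unit, log scale), one point per gene, coloured by the GC content of the transcript. Rpl29 stands at 23293 on the x axis and 39.0 on the y axis, and points rich in GC lie lower on the y axis than on the x axis (the log2 ratio of the 2 levels had a Spearman correlation with GC of -0.69).

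Single members differed far more between the tables than the median did. Rpl29, a large-subunit protein, had a control mean per kilobase 597 times lower in the PEA table, Rps18, at the head of the small subunit, 96.9 times, the pseudogene Rps4l 83.0 times, and Rpl34 79.1 times. Rplp1 ranked 2 of 78 in the first table and 64 of 78 in the second. Rpl10, whose protein completes the large subunit, was the nearest to parity, at 11703 and 11010 per kilobase, and ranked 71 and 4. The log2 ratio of the tables had a Spearman correlation with the GC content of the transcript of -0.69 over the members and -0.76 over all 15136 protein-coding genes. These correlations are descriptions, since all genes share the same libraries.

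Ribosomal protein genes have many processed pseudogenes, and reads from the 2 cannot always be told apart. Over the members, the median share of 40-base windows of the transcript that occur in no other annotated gene was 44.0%, and 73.6% for 150-base windows. For Rps27 these shares were 1.3% and 2.0%, whereas Rpl8 was mostly distinct at 91.0% and 100%. Of the members set side by side above, Rpl10 had 7.8% and 9.1%, Rps18 11.1% and 73.7%, and Rpl29 15.4% and 56.5%. Levels of members with a low share depend on how the authors' program divided shared reads and are uncertain. The log2 ratio of the tables had a Spearman correlation of -0.15 with the 150-base share and -0.02 with the 40-base share. The 308 symbols named as pseudogenes of these families (Rpl or Rps names ending in ps and a number) held 0.201% to 0.243% of all normalized counts per mouse in the Kir2.1 table and 0.171% to 0.279% in the PEA table.

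Paralogs and pseudogenes among the members were mostly near 0. Rpl10l, the testis paralog of Rpl10, was listed at 0 in every mouse of the Kir2.1 table and averaged 0.118 in the PEA table. Rpl3l, the muscle paralog of Rpl3, averaged 4.69 and 0.432, Rpl6l 8.35 and 2.64, and Rpl32l 3.99 and 3.47, all too low to test. Rpl39l was tested only in the Kir2.1 table, since it averaged 3.17 in the PEA table. Rps27l, the paralog of Rps27, was expressed in both, with 1534 to 2627 normalized counts in the Kir2.1 controls and 731 to 1183 in the PEA controls. The protamine and transition protein genes Prm1, Prm2 and Tnp1, markers of testis germ cells, averaged under 1 in both tables.

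The first comparison asks what changes in the epithelium when OSNs carry Kir2.1. Kcnj2 itself was at 986, 1074 and 1274 normalized counts in controls and at 17926, 18530 and 24193 in the Kir2.1 mice. The difference on the log2 scale was 4.18 ± 0.14 (SE, limma, Benjamini-Hochberg adjusted p = 0.000157), so the channel gene was on in these mice. Their titles read Kir2.1-Off, a name the study uses for adults in which doxycycline has shut the transgene off, and these P5 mice are called Kir2.1 mice here. No ribosomal protein gene passed an adjusted p of 0.05 (limma), in either direction, where 0.353% of all 19807 tested genes did (70 genes). At an unadjusted p under 0.05, 11 members were higher and 0 lower (all genes: 4.93% higher and 6.20% lower). All 79 tested members had a log2 fold change above 0 (74 after median centring, 76 after quantile normalization and 77 with Xist as a covariate), beside 51.2% of all genes. The values ran from 0.009 (Rpl28) to 0.75 (Rpl39l). Their median was 0.134, a 1.10-fold difference, against 0.006 over all genes.

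The shift was small and did not separate the groups as a whole. Ribosomal protein genes made up 5.04%, 4.82% and 4.74% of all normalized counts in the 3 Kir2.1 mice and 4.80%, 4.26% and 4.26% in the 3 control mice. Control mouse 1 thus stood among the Kir2.1 mice, and the other 2 controls lay below all. Single members showed a similar order: 74, 60 and 46 of 79 members were above the mean of the 6 mice in the Kir2.1 mice, and 53, 10 and 13 in the controls. The members move together from mouse to mouse and are not independent observations. In 18 members the groups did not overlap, all of them higher in Kir2.1 mice (all genes: 7.26% higher and 9.04% lower). An exact two-sided permutation test of 3 against 3 mice cannot give a p below 0.1, which is what each of those 18 reached.

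**Figure D2:**
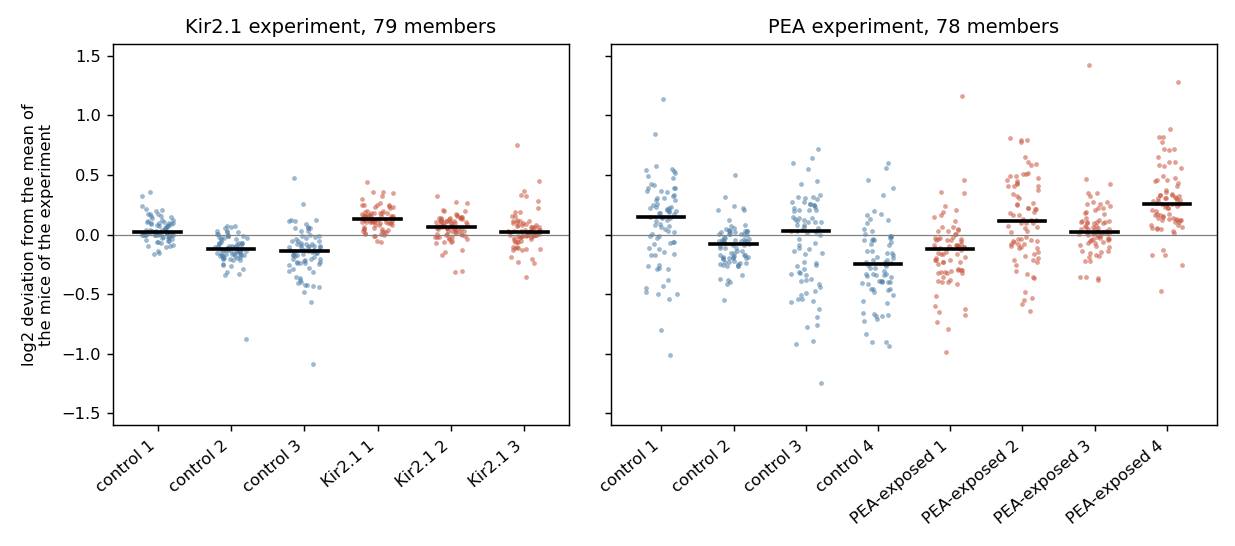
Deviation of each tested ribosomal protein gene from its mean over the mice of its experiment (y axis, log2 scale) for every mouse (x axis), with controls in blue, Kir2.1 or PEA-exposed mice in red, and the median over members as a bar. In the Kir2.1 experiment the medians were 0.024, -0.124 and -0.137 in controls and 0.128, 0.067 and 0.023 in Kir2.1 mice, and in the PEA experiment the medians of the 2 groups overlap.

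Rpl36a and Rps20 had the smallest p-values. Rpl36a, a large-subunit protein near the exit site of tRNA, was at 7856, 7185 and 7383 normalized counts in controls and at 9662, 9028 and 8443 in Kir2.1 mice. All 3 Kir2.1 mice were above all 3 controls, and the difference was 0.27 ± 0.075 on the log2 scale (SE, unadjusted p = 0.00792, adjusted p = 0.242, limma). Only 14.2% of the 40-base windows of Rpl36a occur in no other annotated gene, so its values depend on how shared reads were divided. Rps20, at the head of the small subunit, was at 17040, 16194 and 16066 in controls and at 19335, 19509 and 18800 in Kir2.1 mice. Its groups did not overlap either, and they differed by 0.23 ± 0.062 on the log2 scale (SE, limma, adjusted p = 0.242).

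Rpl31, at the exit of the peptide tunnel, was at 20612, 18310 and 18279 in controls and at 24137, 22425 and 20988 in Kir2.1 mice (0.24 ± 0.084, log2 fold change ± SE). Rpl38 was at 11909, 9943 and 11042 in controls and at 12746, 13028 and 12553 in Kir2.1 mice (0.22 ± 0.080). Rps28, on the platform where mRNA leaves the small subunit, was at 13760, 11895 and 11987 and at 15336, 14377 and 14178 (0.22 ± 0.080). In each of these genes the lowest Kir2.1 mouse lay above control mouse 1, the highest control. The ubiquitin fusion gene Rps27a (0.20 ± 0.077) and Rpl11 (0.19 ± 0.070) likewise did not overlap between groups, whereas Rps24 (0.26 ± 0.10) did, since control mouse 1 was at 22080 and Kir2.1 mouse 3 at 21811. Their adjusted p-values ran from 0.349 to 0.405 (limma).

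**Figure D3:**
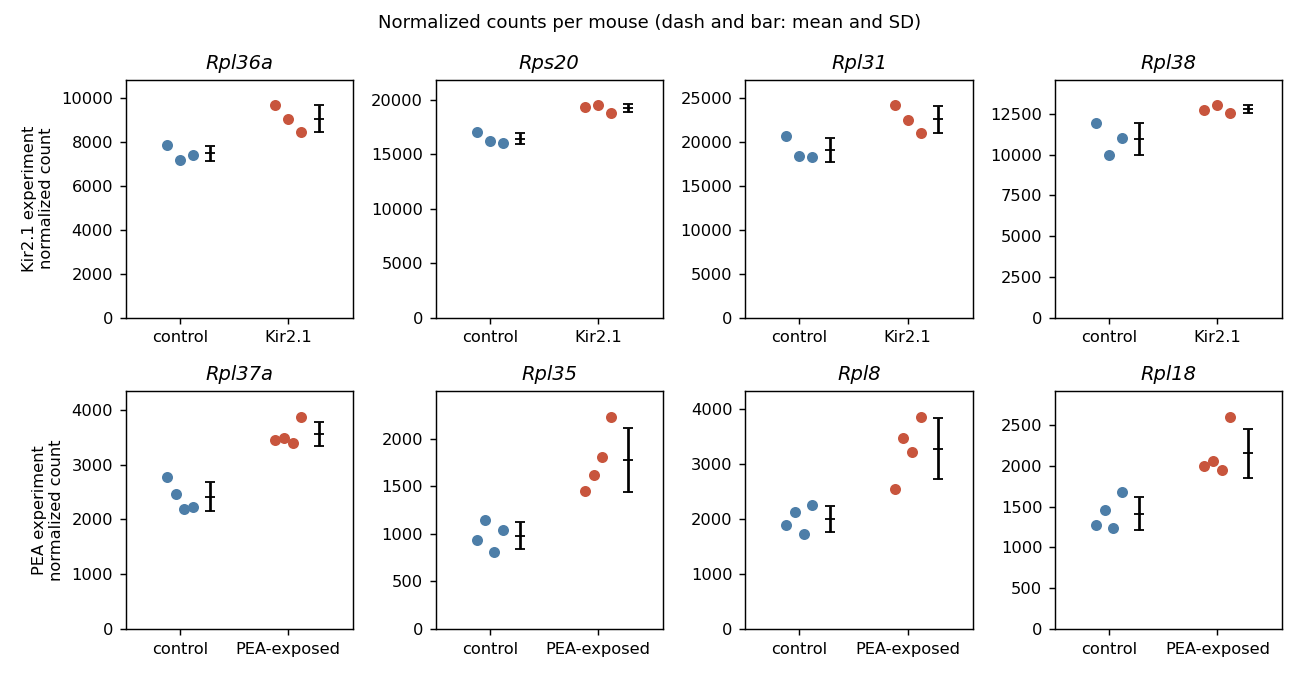
Normalized counts per mouse (y axis, from 0) of the 4 ribosomal protein genes with the smallest p in each comparison, with controls in blue and Kir2.1 (upper row, n = 3 and 3) or PEA-exposed mice (lower row, n = 4 and 4) in red. The dash and bar give the mean and SD of each group, and in all 8 panels every treated mouse lies above every control.

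By role, the Kir2.1 difference was spread over the ribosome. The median log2 fold change was 0.134 over 47 large-subunit and 0.135 over 32 small-subunit members. It was 0.188 over 7 members at the tunnel exit, 0.140 over the 4 stalk members (Rplp0, Rplp1, Rplp2 and Rpl12, which recruit translation factors), 0.119 over 4 members of the mRNA channel and decoding site, and 0.103 over the 3 members nearest the peptidyl transferase centre (Rpl3, Rpl8 and Rpl10). At an unadjusted p under 0.05 there was 1 tunnel exit member and none in the other 3 lists. Of 19 members mutated in Diamond-Blackfan anemia, an inherited failure of red cell formation, 5 were higher at that p and the median was 0.151, beside 11 of all 79 members and 4.93% of all genes. All 5 erythroid markers were higher at that p in the same mice (median 0.885), and their part was not tested.

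Rps6 was at 26237, 24801 and 23297 normalized counts in controls and at 27972, 27331 and 27214 in Kir2.1 mice. The groups did not overlap, and they differed by 0.15 ± 0.071 on the log2 scale (SE, limma, adjusted p = 0.4997). The table measures Rps6 mRNA and holds nothing on phosphorylation of the protein. Rpsa, which also serves as a laminin receptor, was at 37949 to 41454 in controls and at 41651 to 44934 in Kir2.1 mice (0.10 ± 0.073, adjusted p = 0.693, limma). Rps19 and Rps14, the genes best known from inherited and acquired anemias, overlapped between groups (0.099 ± 0.076 and 0.10 ± 0.086).

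Paralogs were measured with wider errors than their main copies. Rps27 had a log2 fold change of 0.17 ± 0.17 and Rps27l of 0.26 ± 0.20, while Rpl39 had 0.19 ± 0.14 and Rpl39l 0.75 ± 0.47 on 4.72 to 19.4 normalized counts. The X-linked Rps4x had 0.16 ± 0.078 and the pseudogene Rps4l 0.25 ± 0.35.

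Other genes of translation mostly gave smaller medians. Of the 7 ribosomal protein genes that the symbol rule leaves out, all 7 were above 0 with a median of 0.135, and Rpl36al, a near-copy of Rpl36a, was the only one higher at an unadjusted p under 0.05 (0.21 ± 0.073, adjusted p = 0.346, limma). Fau (0.13 ± 0.088), Rps3a1 (0.095 ± 0.13), Rack1 (0.073 ± 0.081) and Rpl22l1 (0.36 ± 0.28) were also above 0. Over 35 translation factors the median was 0.013, with 0 higher and 1 lower at that p, the initiation factor subunit Eif3j1 (-0.35 ± 0.12), while Npm1, a nucleolar chaperone, had 0.15 ± 0.068. Over 34 ribosome biogenesis genes the median was -0.002, with 0 in either direction. The smallest p-values there were those of Utp14a (0.18 ± 0.097) and Wdr12 (0.23 ± 0.13).

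Among 16 genes of growth signalling the median was -0.022, and only Rptor, which makes mTOR complex 1 specific for its targets, was lower at an unadjusted p under 0.05. That is 6.25% of the list, beside 6.20% of all genes. Rptor was at 2434, 2695 and 2659 normalized counts in controls and at 2123, 2170 and 2266 in Kir2.1 mice, with no overlap (-0.25 ± 0.071, adjusted p = 0.263, limma). Tsc1, an inhibitor of mTOR, had the next smallest p (-0.21 ± 0.099). The 78 mitochondrial ribosomal protein genes, whose products act in a separate ribosome, had a median of 0.036 with 0 at that p, led by Mrpl39 (0.22 ± 0.10) and Mrps12 (-0.28 ± 0.13).

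**Figure D4:**
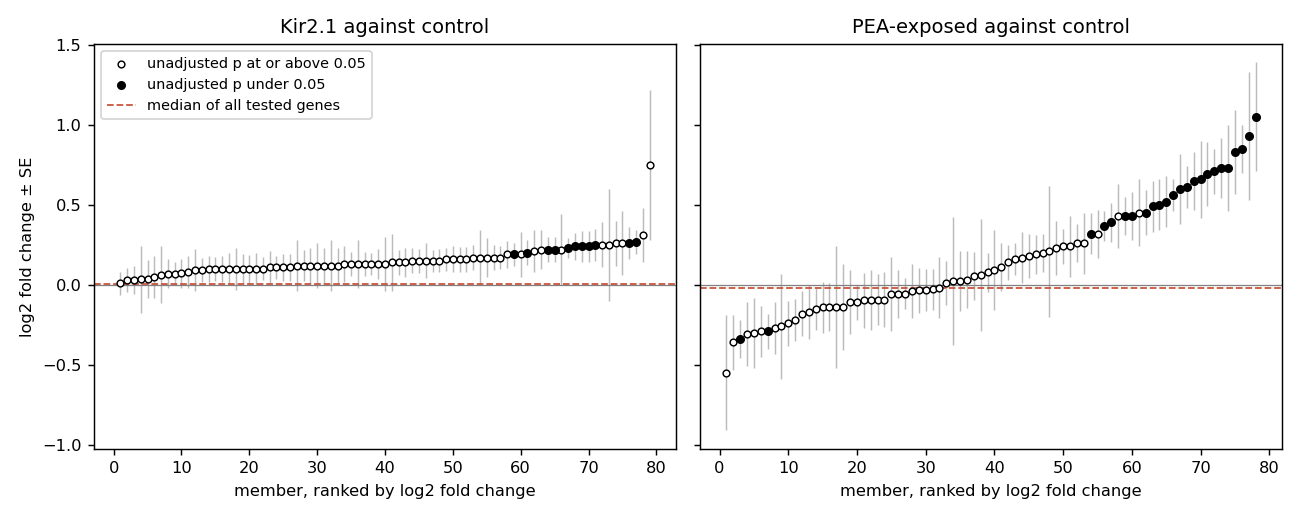
Log2 fold change with its SE (y axis) of each tested ribosomal protein gene, ranked (x axis), in Kir2.1 against control mice (79 members, left) and PEA-exposed against control mice (78 members, right), filled where the unadjusted p was under 0.05. The dashed line is the median of all tested genes, 0.006 and -0.022. On the left all points lie above 0 (74 of 79 after median centring), and on the right 46 lie above it and 32 below.

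RNA levels of some cell type markers also differed between the groups of the Kir2.1 experiment. All 10 markers of mature OSNs had an unadjusted p under 0.05 and were lower with Kir2.1 (median -0.396), with a summed level of 133835 to 148726 in controls and 98674 to 111379 in Kir2.1 mice, and Omp was called (-0.60 ± 0.084, adjusted p = 0.0466, limma). All 5 erythroid markers were higher at that p (median 0.885, summed 11005 to 19896 against 20242 to 33607). The 4 stromal markers were above 0 (median 0.641, summed 61886 to 181744 against 121425 to 163298), as were the 5 immune markers (median 0.330), the 4 horizontal basal cell markers (0.383) and the 5 respiratory ciliated cell markers (0.247). Other lists did not rise as a whole. Vomeronasal neuron markers were above 0 in 0 of 5 (median -1.162) and globose basal cell markers in 2 of 6 (-0.154). Sustentacular markers were above 0 in 2 of 6 (-0.088), immature OSN markers in 4 of 8 (-0.011) and tested skeletal muscle markers in 3 of 4 (0.165). Control mouse 1 differed from the other 5 in vomeronasal receptor genes, with a mean log2 level of 6.06 against 2.35 to 2.45. The lowest mean over the mice was 294.8 for an erythroid and 2566 for a stromal marker, and the part of these cells in the ribosomal protein values was not tested. In whole tissue, more cells of a type and more RNA per cell cannot be told apart.

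The count of members at an unadjusted p under 0.05 depended on single mice. It was 2 without Kir2.1 mouse 1 or control mouse 2, 4 without Kir2.1 mouse 2 or control mouse 3, 17 without Kir2.1 mouse 3 and 19 without control mouse 1. In the same order, the share of all genes higher at that p was 3.12%, 3.29%, 4.29%, 6.04%, 5.62% and 3.75%. The median stayed between 0.114 and 0.198, and 68 to 79 members were above 0. With the log2 values of each mouse centred on their median, the count was 3 (all genes: 3.91%), the median 0.095 and 74 members were above 0.

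The second comparison asks what exposure to an odor from birth changes. Here too no ribosomal protein gene passed an adjusted p of 0.05 (limma), where 0.179% of the 17322 tested genes did (31 genes). At an unadjusted p under 0.05, 22 of 78 members were higher and 2 lower (all genes: 8.93% and 6.04%). In 9 members, all higher, the groups did not overlap (all genes: 5.46% higher and 3.86% lower), and each of those reached 0.0286, the smallest two-sided exact permutation p that 4 against 4 mice allow. The members did not move as 1 group: 46 were above 0 and 32 below (all genes: 46.5% above 0), from -0.55 (Rpl27a) to 1.05 (Rpl28), with a median of 0.086 against -0.022 over all genes.

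As a share of all normalized counts, ribosomal protein genes overlapped between the groups. They made up 2.62%, 2.29%, 2.40% and 1.95% in the controls and 2.16%, 2.50%, 2.34% and 2.67% in the exposed mice. The lowest share was in control mouse 4 and the highest in exposed mouse 4.

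Rpl37a, a zinc-binding protein of the large subunit, had the smallest p. It was at 2766, 2455, 2191 and 2229 normalized counts in controls and at 3451, 3487, 3399 and 3878 in exposed mice. No control reached the lowest exposed mouse (log2 fold change 0.56 ± 0.10, adjusted p = 0.0676, limma). Rpl35, at the tunnel exit beside the docking site of the signal recognition particle, was at 936, 1142, 808 and 1036 in controls and at 1446, 1616, 1802 and 2232 in exposed mice. Every exposed mouse again lay above every control (0.85 ± 0.15, adjusted p = 0.0680, limma).

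Rpl8, which reaches the peptidyl transferase centre, was at 1883, 2118, 1724 and 2250 in controls and at 2543, 3469, 3226 and 3862 in exposed mice (0.71 ± 0.14, adjusted p = 0.0847, limma). Rpl18 was at 1272, 1463, 1236 and 1684 in controls and at 1997, 2061, 1955 and 2605 in exposed mice (0.61 ± 0.13). Rps28 was at 1630, 1564, 1468 and 1768 in controls and at 1980, 2123, 1955 and 2262 in exposed mice (0.37 ± 0.094). In all 3 genes the groups did not overlap, and Rps28 was also among the leading members of the Kir2.1 comparison. Rps15 (0.73 ± 0.19) at the decoding site and Rps16 (0.65 ± 0.18) did not overlap either, with adjusted p-values of 0.135 and 0.150 (limma).

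Single members came past an adjusted p of 0.05 in some of the other fits, while most of those fits called none. Over all fits the largest adjusted p was 0.184 for Rpl37a, 0.221 for Rpl35 and 0.305 for Rpl8 (limma). Rpl37a did so after quantile normalization (0.65 ± 0.10, adjusted p = 0.0370, limma), Rpl35 with no filter on low values (adjusted p = 0.0489, limma), Rpl28 without control mouse 4 (1.41 ± 0.21, adjusted p = 0.0381, limma) and Rpl8 without exposed mouse 1 (0.82 ± 0.12, adjusted p = 0.0384, limma).

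All 4 stalk members were higher at an unadjusted p under 0.05, with a median of 0.547, though the groups overlapped in each. After a correction for GC content, chosen after seeing the data, Rplp1 and Rplp2 were no longer at that p. Rplp0 was at 6062, 4408, 5143 and 4370 in controls and at 5579, 8199, 5993 and 7298 in exposed mice (0.43 ± 0.15). Rplp1 was at 709, 849, 704 and 947 in controls and at 752, 1509, 1198 and 1847 in exposed mice (0.66 ± 0.24). Exposed mouse 1 lay within the controls for both. Rplp2 (0.73 ± 0.27) and Rpl12 (0.32 ± 0.13) had the same sign, and the adjusted p-values of the 4 were 0.227 to 0.283 (limma).

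The other roles were mixed. The 3 platform members were all above 0 (median 0.372), 2 of them at an unadjusted p under 0.05. At the peptidyl transferase centre Rpl8 was higher, while Rpl10 (0.077 ± 0.12) and Rpl3 (-0.29 ± 0.16) overlapped with the controls. Rpl5, at 2629, 2311, 2467 and 2526 in controls and at 1805, 1788, 2251 and 2317 in exposed mice, was lower at an unadjusted p of 0.0241 (-0.29 ± 0.11, adjusted p = 0.263, limma), whereas its partner Rpl11 was at 0.032 ± 0.18. Rps2, at the mRNA entrance, was the other member lower at that p (-0.34 ± 0.12, adjusted p = 0.239, limma).

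Of the 19 Diamond-Blackfan genes, 7 were higher and 1 lower at an unadjusted p under 0.05 (median 0.139), beside 22 and 2 of all 78 members and 8.93% and 6.04% of all genes. Rpl41, the highest member of the Kir2.1 table, was at 3909, 4027, 3276 and 5084 in controls and at 4965, 6531, 4742 and 6554 in exposed mice (0.49 ± 0.16, unadjusted p = 0.0110, adjusted p = 0.204, limma), with overlap. Rps6 was at 10884, 8191, 10495 and 6149 in controls and at 7270, 8234, 7933 and 9398 in exposed mice, which overlap throughout (-0.092 ± 0.17). Rpsa (-0.27 ± 0.16), Rps27a (-0.14 ± 0.27), Rps27 (-0.18 ± 0.14), Rps27l (-0.094 ± 0.16), Rpl39 (-0.037 ± 0.17), Rps4x (-0.22 ± 0.13), Rps19 (0.23 ± 0.17) and Rps14 (0.20 ± 0.12) also overlapped.

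The log2 fold change of a member in the PEA experiment went with the GC content of its transcript. The Spearman correlation was 0.52 over 78 members and 0.51 over 15315 protein-coding genes. Of the 39 members with a GC content at or above the median of 51.9%, 32 were above 0 (median 0.260) and 16 were higher at an unadjusted p under 0.05. Of the 39 below it, 14 were above 0 (median -0.055) and 6 were higher at that p. Other protein-coding genes in the same GC range split in the same direction, with medians of 0.156 (5754 genes) and -0.089 (7685 genes). Of these richer and poorer genes 73.2% and 31.9% were above 0, and 1099 and 180 were higher at that p. In the Kir2.1 experiment the correlation was -0.27 over the members and 0.05 over 16549 genes.

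When each mouse was corrected for GC content by a smooth curve over all genes, an alternative chosen after seeing the data, the medians of the richer and poorer members became 0.178 and 0.031, and those of the other genes 0.001 and 0.000. After the correction 21 members were higher and 3 lower at an unadjusted p under 0.05, beside 5.43% of all genes higher. Of the richer and poorer members 13 and 8 were higher at that p, and of the other genes 405 and 347. The median over members was 0.047, and Rpl37a, one of the poorer members at 47.1% GC, had 0.66 ± 0.10 (adjusted p = 0.0422, limma). The values of Rpl8 (0.45), Rpl18 (0.34), Rplp1 (0.43) and Rplp2 (0.57) were smaller than before, and the last 2 were no longer at an unadjusted p under 0.05. The part of GC content in the members' values was not tested beyond this correction.

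**Figure D5:**
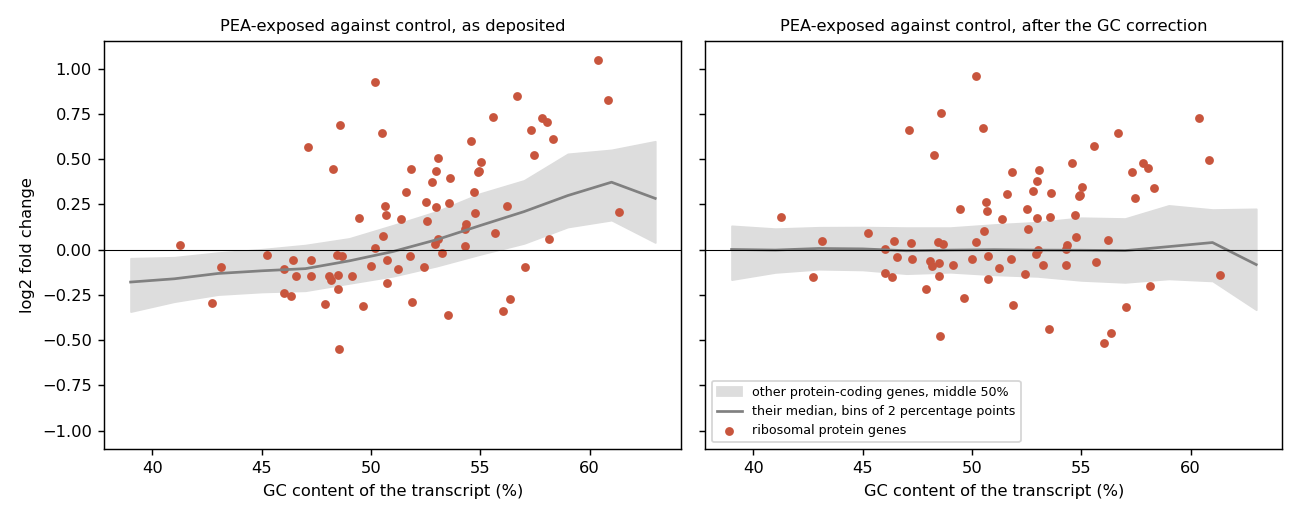
Log2 fold change of PEA-exposed against control mice (y axis) by the GC content of the transcript (x axis, %) for 78 ribosomal protein genes (red points) and, in grey, the median and middle 50% of other protein-coding genes in bins of GC content, as deposited (left) and after the correction per mouse (right). On the left both the members and the other genes run upward (Spearman 0.52 over members), and on the right the members' correlation is 0.22.

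Genes outside the rule showed the same mixture. Fau (0.28 ± 0.18), Rack1 (-0.13 ± 0.11), Rps3a1 (0.13 ± 0.31) and Rpl22l1 (-0.12 ± 0.13) overlapped, and the median of the 7 was 0.117. Of 35 translation factors 3 were higher (8.57%) and 2 lower (5.71%) at an unadjusted p under 0.05, near the shares over all genes of 8.93% and 6.04%. Their median was -0.034, and the smallest p-values were those of the elongation factor Eef2, at 7845 to 9098 in controls and at 10145 to 13721 in exposed mice (0.48 ± 0.11, adjusted p = 0.113, limma), and the initiation factor subunit Eif3d (0.28 ± 0.084).

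Of 34 ribosome biogenesis genes 3 were higher (8.82%) and 1 lower (2.94%) at that p (median 0.073), with Rrp9 (0.84 ± 0.24) and Rrp12 (0.41 ± 0.13) leading. Among 16 growth signalling genes 2 were higher (12.5%) and 2 lower (12.5%) at that p (median -0.011), beside 8.93% and 6.04% of all genes. Rps6kb1, the kinase that phosphorylates S6, was at 918, 1033, 1107 and 979 in controls and at 778, 765, 839 and 907 in exposed mice, and Mtor was at 750, 820, 690 and 826 and at 851, 1134, 972 and 926. Neither gene overlapped between groups and the signs were opposite (-0.30 ± 0.10 and 0.33 ± 0.11, adjusted p = 0.220 and 0.228, limma). Of all genes, 5.46% were higher and 3.86% lower without overlap. Of 78 mitochondrial ribosomal protein genes 4 were higher (5.13%) and 0 lower at an unadjusted p under 0.05 (median 0.041), led by Mrpl4 (0.61 ± 0.16) and Mrps10 (0.73 ± 0.26).

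In the PEA experiment the 10 mature OSN markers had a median of -0.034 with 5 above and 5 below 0, and a summed level of 33073 to 37275 in controls and 31799 to 38000 in exposed mice. Sustentacular markers were above 0 in 5 of 6 (median 0.227), horizontal basal cell markers in 4 of 4 (median 0.387). Globose basal cell markers were above 0 in 1 of 6 (median -0.119) and stromal markers in 1 of 4 (median -0.111). Receptor genes of the vomeronasal organ had a mean log2 level of 5.77, 4.68, 3.91 and 1.38 in the controls and 5.33, 1.66, 1.39 and 1.38 in the exposed mice, so 3 controls and 1 exposed mouse were high. With that level as a covariate, 18 members were higher and 2 lower at an unadjusted p under 0.05 (all genes: 6.78% higher), and the median was 0.086.

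The PEA median rested on single mice. Without control mouse 4 it was 0.011, without exposed mouse 4 0.034, without exposed mouse 1 0.177, without control mouse 1 0.187 and without exposed mouse 3 0.137. Between 18 and 27 members were higher and between 1 and 10 lower at an unadjusted p under 0.05 when 1 mouse was left out, and the 10 came without control mouse 4. The share of all genes higher at that p was 6.68% to 9.23% in those fits.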

How the data were processed

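RNA of whole olfactory epithelium was measured in 14 mice. Per the methods, transcripts were quantified with Salmon 1.3.0 (run as if reads were reverse-stranded, also for the unstranded Kir2.1 libraries), summed per gene and normalized with DESeq2 1.30.0. The authors deposited these normalized counts, a signal per gene. Values near 1 put the worth of 1 read at 0.959 to 1.04 (Kir2.1) and 0.808 to 1.18 (PEA), or roughly 32500000 to 35400000 and 9760000 to 15100000 reads. Only 4.23% to 19.4% of low values were whole multiples of it (tolerance 0.005), so whole reads were not recovered and no count test was run.

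Genes with a mean of at least 10 in an experiment were kept, 1 was added, and log2 values of each experiment were fitted alone with limma 3.58.1 in R 4.3.3 (trend, Benjamini-Hochberg over all genes, threshold 0.05). Fold changes are on this log2(value + 1) scale. The test was tried on simulated data first, with 200 genes changed. At a log2 change of 0.5 it called 0% of them in either experiment. At a change of 1 it called 44% (Kir2.1) and 51.5% (PEA). Exact permutation tests over mice were two-sided. Whether the animals of a group came from different litters is not given in the sources used here. Levels per kilobase used the transcript with the longest coding sequence in GENCODE vM21 (GRCm38, the build of the authors' files). All columns were matched to samples. The rest was done in Python 3.11.15 (pandas 2.3.3, numpy 2.4.6, scipy 1.17.1, matplotlib 3.10.9). No protein sequences were used here.

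The members, gene lists and tests were chosen with earlier results of these data known. Genes named were the 8 members with the smallest p in each experiment, the 3 highest and 3 lowest per kilobase, a fixed set covering roles and paralogs, the first 2 of each related list, and Kcnj2 and Omp, of which 2 genes are not reported here. Rpl27a, Rpl28, Rpl34, Rpl36, Rpl6l, Rpl32l, Rps18, Rps2, Rpl26 and Rpl21 outside that rule were named after their values were seen.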

Additional observations from a re-analysis of the deposited data

Results flagged for a closer look

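In the PEA experiment, the values of the named members and the ribosomal protein share were checked for a mouse far from the other 3 of its group. Of 62 groups of 4 mice checked, 1 was past the limit, and chance flags about 1 in 20. Rpl18 in the exposed mice was at 2605 normalized counts in exposed mouse 4, while the nearest other exposed mouse was at 2061. The gap was 0.837 of the group's range, against a critical value of 0.829. The lowest exposed mouse was at 1955 and the highest control at 1684.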

How the results depend on the processing

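In the Kir2.1 comparison, 0 members were called under any of the alternatives run. The count of members higher at an unadjusted p under 0.05 was 11 of 79 in the main fit (all genes: 4.93%). It was 19 with Xist as a covariate (all genes: 5.2%) and 18 with vomeronasal receptors as a covariate (all genes: 3.69%). Without limma's trend it was 2 (all genes: 4.59%), after median centring 3 (all genes: 3.91%) and after quantile normalization 7 (all genes: 4.56%). With 1 mouse left out it was 2 to 19 (all genes: 3.12% to 6.04%). In the PEA comparison, 1 member was called higher after quantile normalization, 1 with no filter and 1 after the GC correction, and 1 when control mouse 4 or exposed mouse 1 was left out. The count lower at an unadjusted p under 0.05 (2) was 1 after quantile normalization and 1 to 10 with 1 mouse left out. The cause was not tested. The pseudocounts of 0.5 and 5 changed none of these counts of members. Over all tested genes, the correlation of deviations between mice sharing a replicate number was -0.0585, -0.0106 and 0.155 (Kir2.1) and 0.135, -0.0200, -0.0506 and 0.101 (PEA). These values do not settle whether the numbers pair the mice. In the Kir2.1 experiment mice sharing a number were alike in Xist (control and Kir2.1: 13220 and 14300, 11950 and 13030, 3.023 and 22.12). In the PEA experiment they were alike only for number 4 (control and exposed: 13.3 and 16600, 14.39 and 12510, 14590 and 8.138, 24980 and 14870). With Xist as a covariate, 22 members were higher and 3 lower in exposed mice at an unadjusted p under 0.05 (all genes: 8.19% higher). With the replicate block, 23 members were higher in Kir2.1 mice and 23 in exposed mice at an unadjusted p under 0.05 (all genes: 4.57% and 8.17%). Levels per kilobase depend on the transcript chosen: with the median length, Rpl5 in Kir2.1 controls was at 4108 and not 2892. With 3 or 4 mice a group, small differences in single genes cannot be called.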

Other observations

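A few members split the mice in a way that does not fully follow the groups. They were picked after their values were seen and are given with no test. In the PEA experiment Rpl26, at the tunnel exit, was at 2799 and 3346 normalized counts in exposed mice 1 and 3, while exposed mice 2 and 4 were at 892 and 1043 and the controls at 666 to 1190. In the Kir2.1 experiment Rpl26 was at 26646 in Kir2.1 mouse 1 and at 16777 to 19628 in the other 5 mice. Rps18 was at 25171, 24059 and 21108 in Kir2.1 mice 1 and 3 and control mouse 1, and at 15760 to 17558 in the other 3. In the PEA experiment Rpl21 was at 4321 in exposed mouse 4 and at 1087 to 2592 in the other 7. Rpl28 followed the groups apart from control mouse 4, which was at 1267. The other 3 controls were at 363 to 653 and the exposed mice at 1007 to 1509. Why these genes divide the mice was not tested.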
